A study of Homo sapiens with 9 samples.

Results

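MDA-MB-231 cells that had received an siRNA against an isoform of MTDH were compared with untreated MDA-MB-231 cells across all genes measured. MDA-MB-231 is an estrogen receptor-negative human breast adenocarcinoma line with mesenchymal traits. The series holds 9 samples on 1-colour Illumina expression arrays, and the comparison uses 5 of them: 3 isoform-knockdown arrays and the control arrays numbered 1 and 3. Control array 2 equalled the mean of those 2 control arrays at every one of 47231 probes, in signal within 1e-06 and in detection p within 1.1e-05, and was left out. All cells were grown in DMEM with serum and glutamine. The isoform-knockdown cells were transfected with 200 pmol of siRNA for 24 h. So were 3 further samples with an siRNA against wild-type MTDH (the WT knockdown). These WT-knockdown arrays serve to show where the isoform knockdown differed. They also enter the shared estimate of spread and the choice of each gene's brightest probe. The third group, labelled control, was untreated according to the study's stated design. No cells given a non-targeting siRNA were analysed here, so effects of the transfection itself and of the lowered target cannot be told apart. The sources used here give no siRNA sequence. Nothing in the labels says that replicates were separate cultures, and p-values then measure only the spread between these arrays, which may be technical.

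MTDH encodes metadherin, a membrane-anchored protein that binds the nuclease SND1 and has been linked to metastasis and drug resistance in breast cancer. A small interfering RNA is a short duplex that guides an Argonaute protein to a matching transcript. Duplex RNA in the cytoplasm can also be read by sensors such as RIG-I and MDA5, whose signal induces interferon-stimulated genes. The values are the authors' log2 levels, between 5.35 and 14.97, in which a difference of 1 is 2-fold. Differences are isoform knockdown minus control ± SE. A gene is said to rise or fall where limma's Benjamini-Hochberg adjusted p over all 22302 kept probes was under 0.05.

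Between 20295 and 21761 of 47231 probes were detected above background on each of the 8 arrays used, and the number of arrays limits the precision. The median SD over kept probes was 0.0843 in the isoform knockdown (n = 3), 0.0880 in the WT-knockdown arrays (n = 3) and 0.0631 in the controls (n = 2). The log2 levels appeared not to be background-subtracted, which makes the differences of dim genes too small. No slide, scan date or chip position was analysed here, so separate handling of the groups cannot be told apart from the treatment.

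The targeted gene was lower. The only kept MTDH probe stood at 10.07, 9.95 and 9.89 in the isoform-knockdown arrays, against 10.90 and 10.88 in the control arrays. The groups did not overlap. MTDH fell by 0.92 ± 0.09 (adjusted p = 3.43e-07), a level 0.529 times that of control cells. It read 9.81, 9.99 and 10.10 in the WT-knockdown arrays, a difference of 0.00 ± 0.08 between the knockdowns (adjusted p = 0.977). Whether this probe detects the isoform, the wild-type transcript or both was not tested. Of 12 measured genes for MTDH and proteins known to bind it, 2 rose and 4 fell. The partner SND1 was spread, with 9.47, 10.08 and 9.94 in the isoform-knockdown arrays, against 9.88 and 9.89 in the control arrays, and its difference of -0.06 ± 0.12 did not pass. NUCKS1, a nuclear DNA-binding protein, fell by 0.99 ± 0.10, and TCEAL9, also known as WBP5, rose by 0.94 ± 0.09.

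Changes were widespread and mostly small. Of 22302 probes, 9744 passed, 43.7% of those tested, with 4635 higher (20.8%) and 5109 lower (22.9%). Rematched signals with normexp background correction and scaling to a common median, called the median-scaled values below, gave 2109 higher and 5730 lower, and moved the median difference of all probes to -0.14. The same background correction with quantile normalization (neqc) gave 4338 higher and 4711 lower. At gene level, each of 12149 genes was represented by its brightest kept probe. Of these, 5869 were called (48.3%), 2659 higher (21.9%) and 3210 lower (26.4%). Counts below from this fit against control are to be read against those 2 shares. The median-scaled values called 1088 of the 12149 genes higher and 3583 lower. Counts given below in the median-scaled values are to be read against these totals instead. Fits with an array left out or another filter also have totals of their own. Only 242 genes (1.99%) were called at 2-fold or more, 181 of them higher and 61 lower. The isoform-knockdown and control arrays did not overlap at 67.3% of genes, so a lack of overlap is the usual case in these data.

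**Figure D1:**
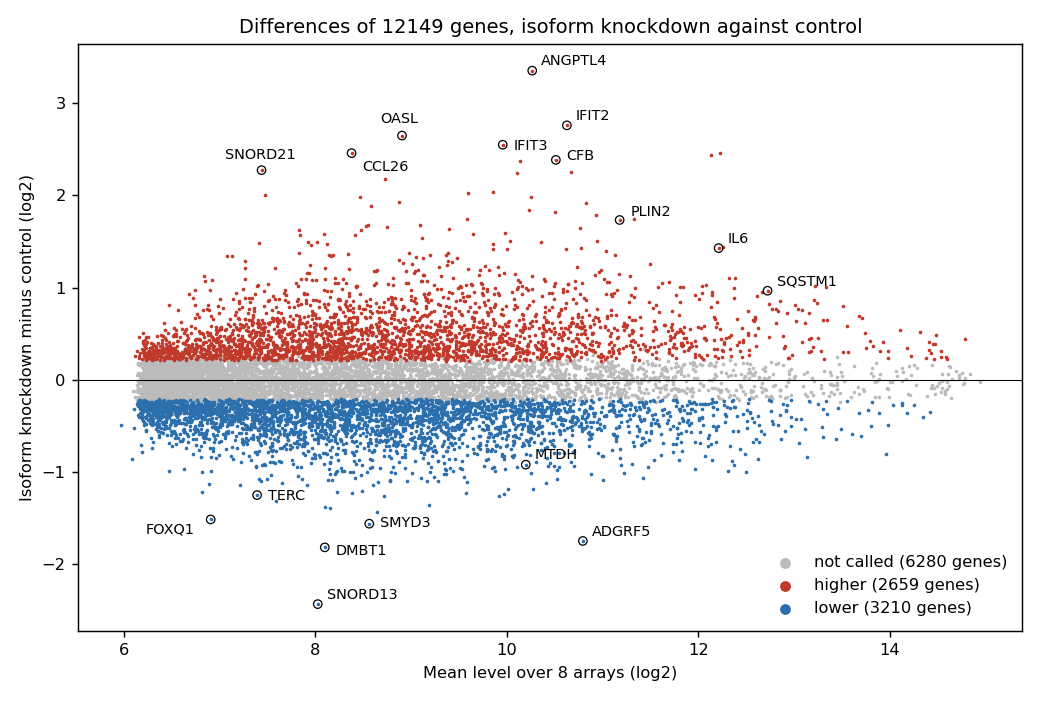
Difference between isoform knockdown and control (vertical axis, log2) against mean level over 8 arrays (horizontal axis, log2) for 12149 genes, with genes called higher, lower and not called in separate colours and named genes labelled. The 181 genes called at 2-fold or more higher reach 3.35 for ANGPTL4, and the 61 called at 2-fold or more lower reach -2.43 for SNORD13.

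The largest rise was in ANGPTL4, a secreted inhibitor of lipoprotein lipase and a target of PPAR and hypoxia signalling. Its level was 11.31, 11.25 and 11.36 in the isoform-knockdown arrays, against 7.91 and 8.01 in the control arrays, a fold of 10.2 (adjusted p = 7.48e-15), and all 3 of its probes rose. Interferon-induced genes came next. IFIT2, whose product binds RNA in antiviral defence, read 10.64, 10.74 and 10.88 in the isoform-knockdown arrays, against 7.92 and 8.08 in the control arrays. OASL, a cofactor of RIG-I, read 9.34, 9.30 and 9.33 after the knockdown and 6.70 and 6.66 in the controls. IFIT3 had 10.27, 10.26 and 10.38 in the isoform-knockdown arrays and 7.81 and 7.70 in the control arrays, and IFIT1 had 10.95, 10.93 and 11.03 and, in controls, 8.71 and 8.72. In each of these genes the lowest knockdown array lay more than 2 log2 units above the higher control.

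Other large rises were spread over secreted proteins, a germline family and small RNAs. The chemokine CCL26 rose by 2.46 ± 0.09, complement factor B (CFB) by 2.38 ± 0.10, and TNFSF10, the death ligand TRAIL, by 2.02 ± 0.09. PLAAT4, a retinoid-inducible phospholipid acyltransferase, rose by 2.24 ± 0.08, and GABARAPL1, an ATG8-family protein of autophagosome membranes, by 2.18 ± 0.10. SPANXB1, SPANXA2 and SPANXD, sperm proteins re-expressed in tumours, were at 2.46, 2.44 and 2.37; their genes are near-identical copies, so which copy a probe measured is uncertain. RN7SK, the 7SK RNA that holds the elongation kinase P-TEFb, read 9.91, 10.07 and 10.11 in the isoform-knockdown arrays, against 7.99 and 7.99 in the control arrays.

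The largest fall was in SNORD13, a small nucleolar RNA that guides acetylation of 18S ribosomal RNA, with 7.39, 7.90 and 7.97 in the isoform-knockdown arrays, against 10.14 and 10.22 in the control arrays. It fell by 2.43 ± 0.13 (adjusted p = 8.26e-11). ADGRF5, an adhesion G protein-coupled receptor, read 10.43, 10.40 and 10.29 in the isoform-knockdown arrays and 12.17 and 12.07 in the control arrays. DMBT1, a secreted scavenger receptor, fell by 1.81 ± 0.08 on its brighter probe; its other probe was not called. The histone methyltransferase SMYD3 fell by 1.56 ± 0.10, the forkhead factor FOXQ1 by 1.51 ± 0.09 and GMDS, the first enzyme of GDP-fucose synthesis, by 1.43 ± 0.09. FOXQ1 lay between 6.50 and 6.58 after the knockdown, close to the lowest detected levels of 6.28 to 6.33, so its fall may be larger than measured.

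Further falls by more than 2-fold were in AGAP1, an Arf GTPase-activating protein (-1.38), RNASEH2B, a subunit of ribonuclease H2 (-1.37), the septin SEPTIN11 (-1.35), the cilium-associated MNS1 (-1.32) and the homeobox factor PBX3 (-1.26). Nuclear genes of mitochondrial proteins were also among them. MPC1, a subunit of the mitochondrial pyruvate carrier, was at -1.25 ± 0.09, MICU2, a gatekeeper of the calcium uniporter, at -1.23 ± 0.10 and FARS2, the mitochondrial phenylalanine tRNA synthetase, at -1.23 ± 0.09. The telomerase RNA TERC read 7.09, 7.19 and 7.11 in the isoform-knockdown arrays, against 8.22 and 8.54 in the control arrays.

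**Figure D2:**
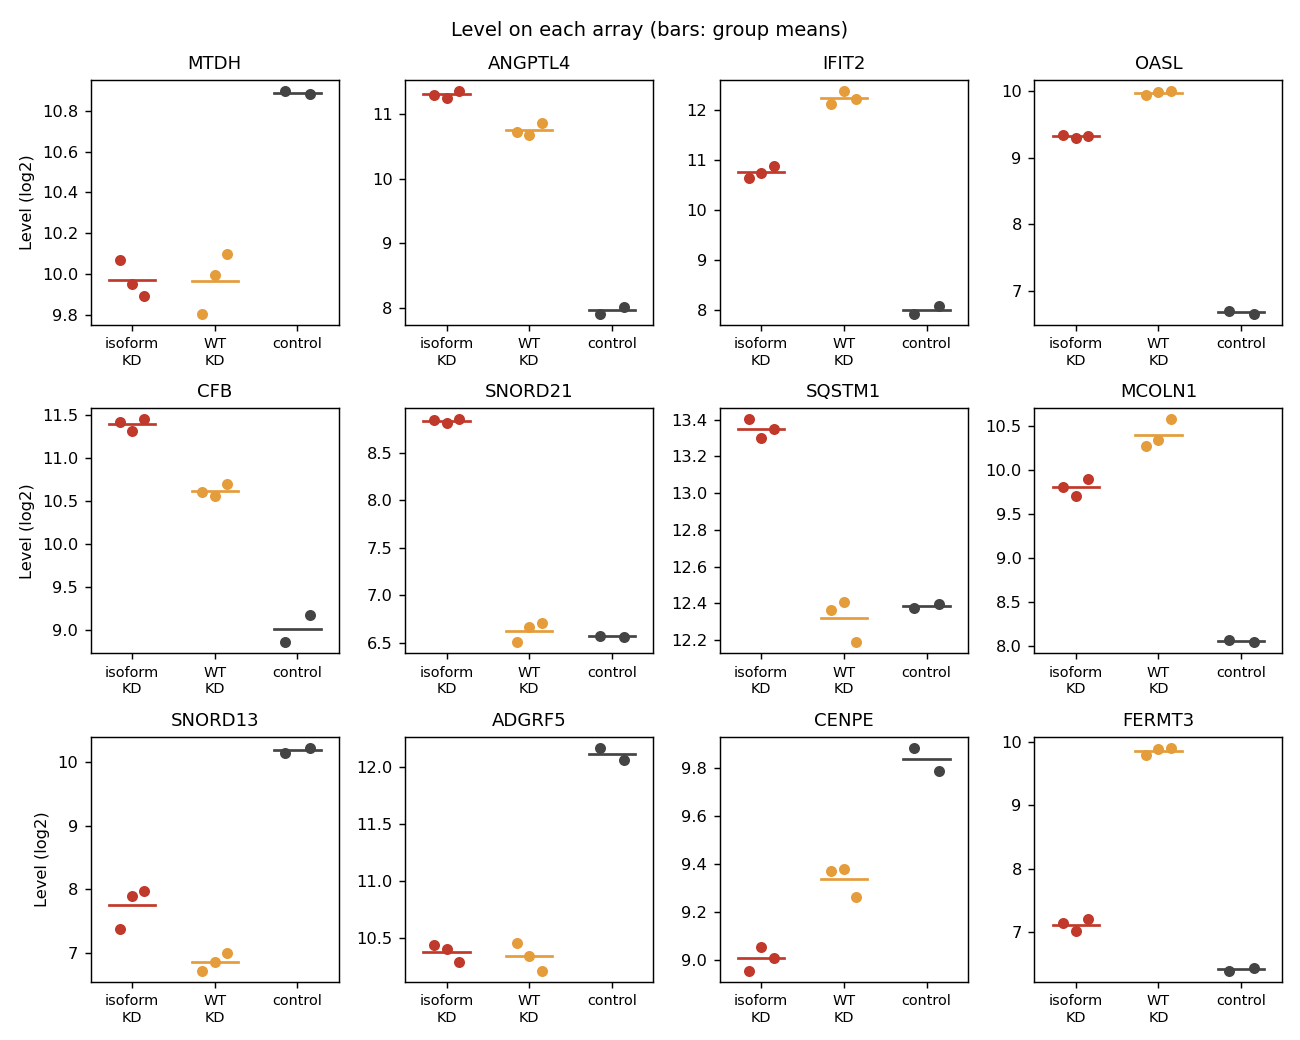
Log2 level on every array (vertical axis) for 12 genes, one panel each, with the isoform knockdown (3 arrays), the WT knockdown (3 arrays) and the control (2 arrays) from left to right and a bar at each mean. ANGPTL4 lies between 11.25 and 11.36 in the isoform knockdown and at 7.91 and 8.01 in control, and SNORD21 lies at 8.82 to 8.85 in the isoform knockdown alone.

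Interferon genes were described from sensor to effector. Of 15 measured sensors and adaptors of foreign nucleic acid, 5 rose and 2 fell. STING1, the adaptor of cytosolic DNA sensing, had 8.99, 8.60 and 8.83 in the isoform-knockdown arrays, against 7.16 and 7.21 in the control arrays. RIGI and IFIH1, the genes of RIG-I and MDA5, rose by 0.51 ± 0.10 and 0.64 ± 0.11. MAVS, the mitochondrial adaptor of both, fell by 0.56 ± 0.08. Among 14 interferon receptors and IRF and STAT factors, 4 rose and 2 fell (2 and 3 in the median-scaled values), with IRF7 at 1.10 ± 0.10, IRF9 at 0.80 ± 0.09 and the inhibitor SOCS1 at -0.41 ± 0.09.

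Of 35 measured interferon-stimulated effectors, 23 rose, 1 fell (GBP1, at -0.22 on its brightest probe, whose other probe rose; that call was lost with either control array left out or without isoform-knockdown array 1 or 2, at adjusted p between 0.061 and 0.132) and 11 did not pass, with a median of 0.37 against -0.02 over all genes. In the median-scaled values, 14 of these effectors were called higher and 1 lower. IFI6 rose by 1.42 ± 0.08. MHC class I presentation moved the same way, with 10 of 16 genes higher, 0 lower and a median of 0.40, though only 4 were called higher in the median-scaled values. HLA-F read 11.14, 11.16 and 11.11 in the isoform-knockdown arrays, against 10.04 and 10.13 in the control arrays, and HLA-E rose by 0.93 ± 0.08. The light chain B2M rose by 0.58 ± 0.09 and the immunoproteasome subunit PSMB8 by 0.81 ± 0.09. HLA genes are similar in sequence, so probes may read more than 1 of them.

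Promoters of the effectors were searched for the interferon-stimulated response element core GAAANNGAA on both strands, in RefSeq windows from 250 bases before to 50 after the start (GRCh38.p14). It was present in 22 of 29 effector promoters in the table (75.9%) and in 9 of 14 MHC class I promoters (64.3%), against 6.56% of the 9704 promoters of measured genes and 8.29% of all 27305. Among effectors that rose, 15 of 17 held it, and among those that did not pass, 6 of 11. The 80-base stretches of 3 effectors named above are printed because their copies lie close to the start, with matches in capitals; IFIT1 and IFIT3 hold them on the opposite strand.
IFIT1, chr10:89392486-89392565, plus strand: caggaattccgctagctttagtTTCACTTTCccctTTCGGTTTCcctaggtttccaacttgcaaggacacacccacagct
IFIT3, chr10:89327841-89327920, plus strand: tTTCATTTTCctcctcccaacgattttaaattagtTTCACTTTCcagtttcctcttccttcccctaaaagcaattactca
IFI6, chr1:27672241-27672320, minus strand: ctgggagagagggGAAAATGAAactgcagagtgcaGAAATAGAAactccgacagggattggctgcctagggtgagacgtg

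Of 19 NF-kB subunits and inhibitors, 6 rose and 5 fell (3 and 4 with either control array left out, 1 and 5 in the median-scaled values), with the feedback inhibitor TNFAIP3 at 1.47 ± 0.08 and the precursor subunit NFKB1 at -0.59 ± 0.08. Of 10 measured chemokines, 8 rose and 1 fell. CCL20, which attracts CCR6-bearing cells and was detected on only 1 of 2 control arrays, rose by 1.34 ± 0.09, CCL2, a monocyte attractant, by 1.36 ± 0.08, and CXCL8, a neutrophil attractant, by 0.47 ± 0.09. CXCL1, a ligand of the same receptor as CXCL8, fell by 0.63 ± 0.13. Of 19 cytokines and growth factors, 7 rose and 1 fell (4 and 2 in the median-scaled values). IL6 read 12.57, 12.48 and 12.66 in the isoform-knockdown arrays, against 11.16 and 11.13 in the control arrays. IL1B and IL1A rose by 1.65 ± 0.09 and 1.01 ± 0.09, while IL11, a cytokine linked to bone metastasis, fell by 0.57 ± 0.09.

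Complement was the list with the highest median, 0.80 over 9 genes, of which 6 rose and 0 fell. CFB of the alternative pathway had 11.43, 11.32 and 11.45 in the isoform-knockdown arrays, against 8.86 and 9.17 in the control arrays. The classical-pathway proteases C1R and C1S rose by 1.29 ± 0.08 and 1.21 ± 0.09, and the regulator CD55, which shields host cells, by 0.83 ± 0.13. C3 rose by 0.80 ± 0.08 on its brighter probe; its other probe did not pass. CD55 differed among isoform-knockdown arrays, with 9.92, 9.69 and 9.49, all above 8.87 and 8.87 in the control arrays. The NF-kB consensus was present in 4 of 6 chemokine promoters and 1 of 6 complement promoters, against 12.9% of the promoters of measured genes. Among chemokines it was in 3 of 5 promoters of genes that rose and in that of CXCL1, which fell.

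Immediate early factors rose as well. Of 11 AP-1 and ATF genes, 9 rose and 1 fell (5 and 1 in the median-scaled values). ATF3, induced by many stresses, had 9.01, 8.96 and 9.09 in the isoform-knockdown arrays, against 7.31 and 7.38 in the control arrays. FOS rose by 1.07 ± 0.10, although it was detected on only 1 of 2 control arrays, and JUNB by 0.68 ± 0.09, whereas JUND fell by 0.77 ± 0.09. Of 19 EGR, KLF and other early genes, 12 rose and 3 fell (7 and 3 in the same values): the kinase SGK1 rose by 1.51 ± 0.08, the inhibitor of bHLH factors ID2, detected on 1 of 2 control arrays, by 1.35 ± 0.10 and EGR1 by 1.25 ± 0.09, while KLF2 fell by 0.62 ± 0.09. The CArG box was found in 2 of 13 promoters of these early genes and in 0 of 9 of the AP-1 and ATF genes. Its share was 1.05% of the promoters of measured genes. It was in 1 of 9 promoters of early genes that rose and 1 of 3 of those that fell.

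Of 16 feedback genes that report ERK signalling, 8 fell and 3 rose. The ERK phosphatase DUSP6 fell by 0.64 ± 0.08, the Sprouty-related SPRED1 and SPRED2 by 0.76 ± 0.10 and 0.66 ± 0.08, and PHLDA1 by 0.87 ± 0.08. DUSP1, a nuclear phosphatase that also acts on p38 and JNK and is itself an early gene, rose by 1.58 ± 0.10. Of 8 measured EGF-family ligands and receptors, 3 fell and 1 rose, with TGFA at -0.95 ± 0.12, EGFR at -0.30 ± 0.08 and HBEGF at 0.55 ± 0.08.

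**Figure D3:**
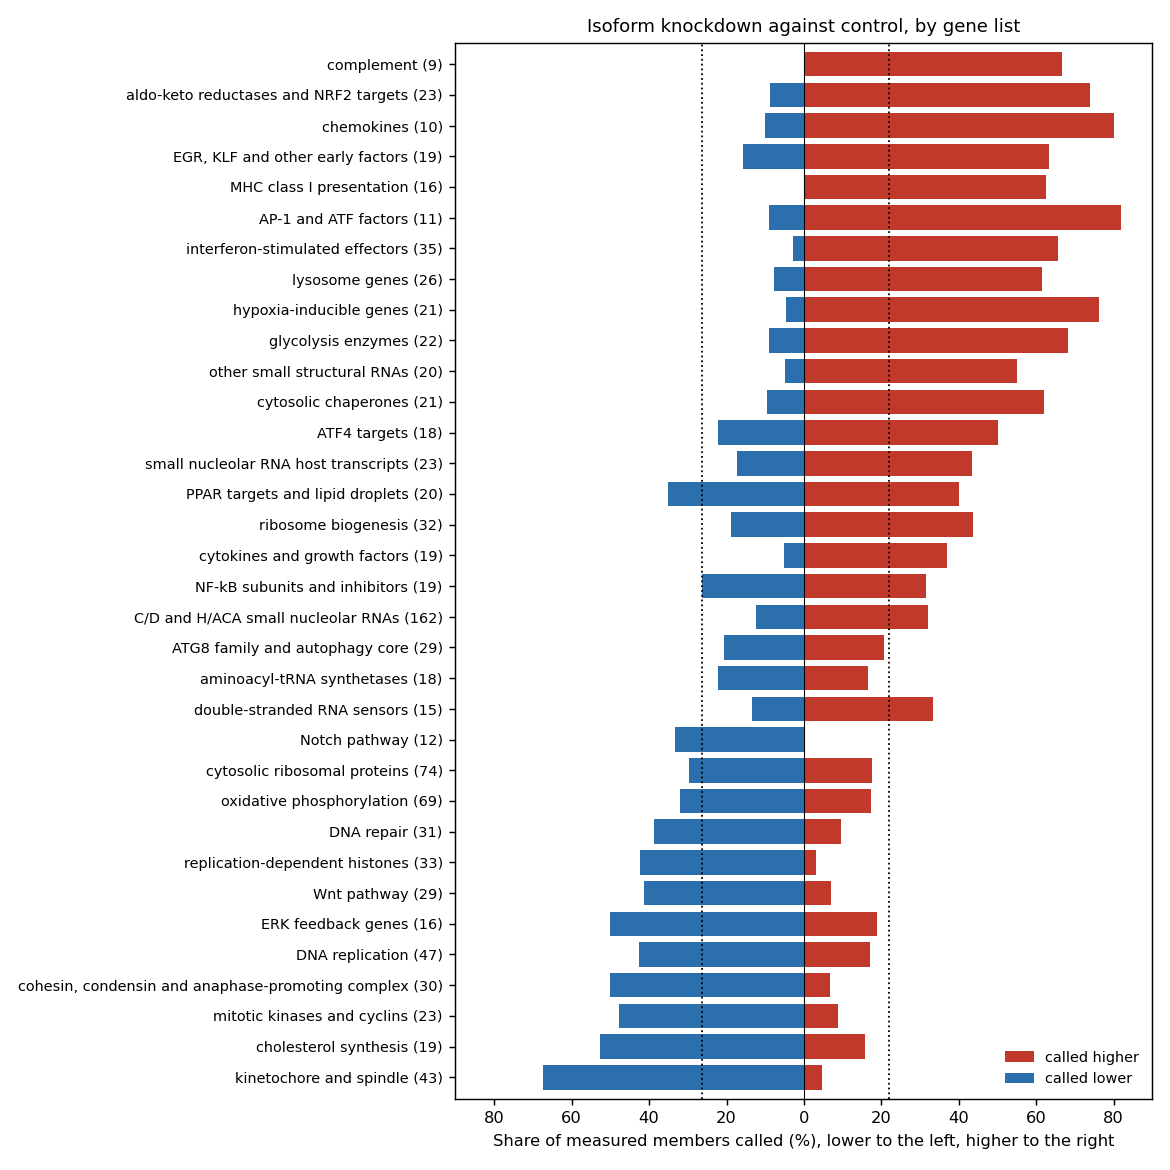
Share of measured members called higher (bars to the right) and lower (bars to the left) in the isoform knockdown against control, in percent, for 34 gene lists ordered by their median difference, with the number measured beside each name and dotted lines at the shares over all genes (21.9% and 26.4%). Complement, chemokines and aldo-keto reductases lie at the top of the order and kinetochore genes at the bottom.

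Hypoxia-inducible genes and glycolysis rose. Of 21 hypoxia-inducible genes, 16 rose and 1 fell, the fall being in HIF1A itself (-0.56 ± 0.09). NDRG1, a stress-induced gene, had 11.72, 11.78 and 11.84 in the isoform-knockdown arrays, against 10.41 and 10.45 in the control arrays. The collagen prolyl hydroxylase P4HA1 rose by 1.03 ± 0.09, the vasodilator peptide ADM by 1.00 ± 0.09, the HIF-2 subunit EPAS1 by 0.91 ± 0.08 and the mitophagy receptor BNIP3 by 0.68 ± 0.09. Of 22 glycolysis genes, 15 rose and 2 fell. In the median-scaled values, 7 hypoxia-inducible and 6 glycolysis genes were called higher, 2 and 1 lower. Phosphoglycerate kinase PGK1 read 13.06, 13.15 and 13.02 in the isoform-knockdown arrays and 12.16 and 12.09 in the control arrays. The aldolase ALDOC rose by 1.14 ± 0.08, the enolase ENO2 by 0.95 ± 0.09 and the glucose transporter SLC2A3 by 0.79 ± 0.09, while the transporter SLC2A1 fell by 0.61 ± 0.08.

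The HIF core ACGTG was present in 8 of 17 hypoxia-inducible promoters (47.1%) and in 8 of 21 glycolysis promoters (38.1%). Its share was 26.9% of the promoters of measured genes. Most of the 17 promoters, 14, were of genes that rose, and 8 of these 14 held it. In glycolysis it was in 7 of 14 promoters of genes that rose and 1 of 5 of those that did not pass. Such a short motif occurs often. Windows of 2 genes that rose are printed with matches on either strand in capitals; in BNIP3 a pair of matches overlap.
P4HA1, chr10:73096910-73096989, minus strand: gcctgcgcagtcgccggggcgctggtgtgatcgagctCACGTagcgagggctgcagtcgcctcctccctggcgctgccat
BNIP3, chr10:131982014-131982093, minus strand: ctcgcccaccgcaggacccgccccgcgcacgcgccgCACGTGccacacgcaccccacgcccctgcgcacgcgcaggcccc

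Of 20 PPAR targets and lipid droplet genes, 8 rose and 7 fell. Only 4 fell without control array 3, and 5 rose in the median-scaled values. Besides ANGPTL4, the lipid droplet coat PLIN2 rose by 1.73 ± 0.08, with 11.94, 11.86 and 12.02 in the isoform-knockdown arrays against 10.18 and 10.24 in the control arrays, and PDK4, a kinase that inhibits pyruvate dehydrogenase, rose by 0.78 ± 0.09. The receptor side went the other way: PPARG fell by 0.39 ± 0.09 and its partner RXRA by 0.54 ± 0.08. Of 19 genes of cholesterol synthesis, 10 fell and 3 rose. INSIG1, which retains the SREBP precursor in the ER, fell by 0.81 ± 0.11, lanosterol synthase LSS by 0.63 ± 0.09 and MSMO1 by 0.62 ± 0.08, and the sterol isomerase EBP rose by 0.99 ± 0.09.

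Aldo-keto reductases and NRF2 targets rose in 17 of 23 genes and fell in 2, with a median of 0.51. AKR1C3, which reduces steroids and prostaglandins, had 11.89, 11.74 and 11.75 in the isoform-knockdown arrays, against 10.29 and 10.29 in the control arrays. AKR1C4 and AKR1B10 rose by 1.67 ± 0.09 and 1.13 ± 0.10; AKR1B10 was detected on only 1 of 2 control arrays. AKR1C2 rose by 2.00 ± 0.10 on its brightest probe, yet 1 of its 3 probes fell, and AKR1C genes are similar enough for probes to share targets. Heme oxygenase HMOX1 read 8.59, 8.58 and 8.47 in the isoform-knockdown arrays and 7.08 and 7.03 in the control arrays. The malic enzyme ME1 fell by 0.44 ± 0.09. The antioxidant element TGANNNNGC was in 7 of 16 of these promoters (43.8%), near the 42.9% of the promoters of measured genes. Of 8 metallothionein genes and their regulators, 2 rose and 3 fell. MT1E and MT1G fell by 0.80 ± 0.09 and 0.79 ± 0.09, the zinc exporter SLC30A1 rose by 0.51 ± 0.10, and MT1X had a difference of -0.01 ± 0.09, which did not pass.

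Stress genes of translation and folding were mixed. Of 18 ATF4 targets, 9 rose and 4 fell. DDIT3, the factor CHOP, had 9.40, 9.46 and 9.55 in the isoform-knockdown arrays, against 7.50 and 7.60 in the control arrays, and PPP1R15A, which directs dephosphorylation of eIF2-alpha, rose by 1.05 ± 0.09, while ATF5 fell by 0.97 ± 0.10 and the serine synthesis genes PSAT1 and PHGDH by 0.48 ± 0.08 and 0.38 ± 0.09. PHGDH was detected on only 1 of 3 isoform-knockdown arrays. Among 18 aminoacyl-tRNA synthetases, 3 rose and 4 fell, with FARSB at 0.54 ± 0.09, VARS1 at -0.77 ± 0.08 and YARS1 at -0.64 ± 0.09. The C/EBP-ATF motif TGATGNAA was in 5 of 15 promoters of these synthetases and 1 of 15 of ATF4 targets. Its share was 1.82% of the promoters of measured genes. Among synthetases it was in 1 of 3 promoters of genes that rose and 4 of 11 of those that did not pass. Of 21 cytosolic chaperones 13 rose and 2 fell (4 and 2 in the median-scaled values), with HSPB8 at 0.88 ± 0.09, the co-chaperone BAG1, detected on 1 of 2 control arrays, at 0.81 ± 0.09 and DNAJB6 at -0.70 ± 0.09. The ER chaperones had 5 higher and 5 lower of 17. The numbers were 2 and 3 without control array 1, 3 and 4 without isoform-knockdown array 2, 3 and 5 without isoform-knockdown array 3 or with no filter, 3 and 3 with neqc, and 0 and 5 in the median-scaled values. Of 10 amino acid transporters 4 rose and 3 fell (2 and 4 in the median-scaled values). SLC3A2, the heavy chain of some amino acid transporters, rose by 1.15 ± 0.09, and the arginine transporter SLC7A1 fell by 0.94 ± 0.09.

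Of 26 lysosomal genes 16 rose and 2 fell, with a median of 0.36. In the median-scaled values, 8 were called higher and 3 lower. The largest was MCOLN1, the calcium channel TRPML1 of the lysosomal membrane, with 9.81, 9.70 and 9.89 in the isoform-knockdown arrays, against 8.07 and 8.04 in the control arrays. Cathepsin A (CTSA) read 10.22, 10.43 and 10.17 in the isoform-knockdown arrays, against 8.88 and 8.82 in the control arrays. SGSH, which degrades heparan sulfate, rose by 1.20 ± 0.08, the peptidase TPP1 by 1.18 ± 0.09 and the sialidase NEU1 by 0.96 ± 0.08. The larger of the 2 falls was in the proton pump subunit ATP6V1A (-0.36). Autophagy genes had no common direction, with 6 of 29 higher and 6 lower. The cargo receptor SQSTM1 rose by 0.96 ± 0.09 and the ATG8 proteins MAP1LC3B and MAP1LC3A by 0.73 ± 0.08 and 0.68 ± 0.08, while the conjugation enzymes ATG7 and ATG3 fell by 0.71 ± 0.08 and 0.50 ± 0.08 and the protease ATG4B by 0.62 ± 0.08.

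TFEB-family factors bind an E-box called CLEAR in lysosomal promoters. Its core TCACGTGA was searched after these values were seen. It was in 5 of 18 lysosomal promoters (27.8%), against 1.99% of the promoters of measured genes. The core was in 4 of 13 lysosomal promoters of genes that rose and 1 of 5 of those that did not pass. It holds the HIF core within it, and a match is a description of the letters only. The windows of the 2 largest rises among these genes are printed, with the core in capitals; MCOLN1 holds a pair.
MCOLN1, chr19:7522573-7522652, plus strand: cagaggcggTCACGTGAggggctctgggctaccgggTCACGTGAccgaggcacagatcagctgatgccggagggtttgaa
CTSA, chr20:45891273-45891352, plus strand: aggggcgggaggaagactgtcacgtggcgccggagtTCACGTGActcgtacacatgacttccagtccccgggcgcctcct

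Genes of chromosome segregation fell. In RNA of a whole culture, fewer cells in a phase of the cycle and less RNA per cell cannot be told apart. Of 43 kinetochore and spindle genes, 29 fell (67.4%) and 2 rose, with a median of -0.43, the lowest of all lists with at least 10 measured members. The kinetochore motor CENPE had 8.96, 9.05 and 9.01 in the isoform-knockdown arrays, against 9.88 and 9.79 in the control arrays. The spindle motor KIF15 fell by 0.81 ± 0.09, the spindle pole protein ASPM by 0.71 ± 0.09 and the centromere proteins CENPK and CENPM by 0.73 ± 0.08 and 0.70 ± 0.08. ZWINT and DSN1 went against the rest, at 0.69 ± 0.09 and 0.37 ± 0.09. Of 23 mitotic kinases and cyclins, 11 fell and 2 rose. Cyclin B1 (CCNB1) read 9.48, 9.60 and 9.36 in the isoform-knockdown arrays, against 10.35 and 10.34 in the control arrays, and the kinase PLK1 fell by 0.71 ± 0.09. The phosphatase CDC25A rose by 0.63 ± 0.09.

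The cell cycle genes homology region, CHR (TTTGAA), is the site through which the DREAM and MuvB complexes act on late cell cycle genes. It was in 25 of 39 kinetochore and spindle promoters (64.1%) and 8 of 17 promoters of mitotic kinases and cyclins (47.1%), against 10.1% of the promoters of measured genes and 1 of 41 DNA replication promoters (2.44%). In the kinetochore list it was in 16 of 25 promoters of genes that fell and 8 of 12 of those that did not pass. Windows of 3 genes that fell are printed with the match in capitals, which in ASPM and KIF15 lies on the opposite strand.
ASPM, chr1:197146740-197146819, minus strand: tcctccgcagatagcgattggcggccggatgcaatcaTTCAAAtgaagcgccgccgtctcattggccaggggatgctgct
KIF15, chr3:44761722-44761801, plus strand: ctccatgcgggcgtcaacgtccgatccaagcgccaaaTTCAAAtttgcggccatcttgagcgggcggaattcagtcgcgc
PLK1, chr16:23678823-23678902, plus strand: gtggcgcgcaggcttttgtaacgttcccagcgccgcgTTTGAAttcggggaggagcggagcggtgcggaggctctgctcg

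Chromosome structure, replication and repair followed with smaller medians. Of 30 cohesin, condensin and anaphase-promoting complex genes, 15 fell and 2 rose, with the anaphase-promoting complex subunit ANAPC10 at -1.03 ± 0.09. The cohesin subunit SMC3 rose by 0.51 ± 0.09 on the brighter of its 2 probes, the other not passing. In 47 replication genes, 20 fell and 8 rose. The rises numbered 4 without isoform-knockdown array 2, 5 with either control array left out or with neqc, and 1 in the median-scaled values. DNA polymerase alpha (POLA1) fell by 0.95 ± 0.10 on its brighter probe, its other probe not passing, while the licensing genes ORC1, MCM2 and CDT1 rose by 0.81 ± 0.10, 0.49 ± 0.08 and 0.47 ± 0.09. Of 31 repair genes, 12 fell, led by RNASEH2B and the Fanconi gene FANCC (-0.73), and 3 rose. In the median-scaled values 12 repair genes fell and 0 rose. Of 33 replication-dependent histones, 14 fell and 1 rose, among copies that probes may not separate. With detection required on all 5 arrays, 10 fell and 0 rose. The rise was also lost without isoform-knockdown array 1 and in the median-scaled values. H2AC6 fell by 0.95 ± 0.09 and H4C3 by 0.80 ± 0.09. In the G1 list, 6 of 18 fell and 2 rose (6 and 1 with neqc, 8 and 1 in the median-scaled values). E2F3 fell by 0.95 ± 0.08, cyclin D1 (CCND1) by 0.75 ± 0.08 and the CDK inhibitor CDKN1A by 0.76 ± 0.08. The CDK4 and CDK6 inhibitor CDKN2D rose by 1.34 ± 0.10.

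Of 26 BCL2-family and death receptor genes, 6 rose and 5 fell (3 and 7 in the median-scaled values). The pore former BAX rose by 1.19 ± 0.09 and the TRAIL receptor TNFRSF10A by 0.55 ± 0.09, while TNFRSF10B, the other signalling receptor of TRAIL, fell by 0.38 ± 0.09. The anti-apoptotic BCL2L1 read 11.81, 11.81 and 11.63 in the isoform-knockdown arrays, against 12.62 and 12.52 in the control arrays, and BCL2 fell by 0.76 ± 0.10. Of 19 p53 targets, 8 rose and 5 fell; GADD45A and GADD45B rose by 1.07 ± 0.09 and 1.12 ± 0.09. The p53 targets numbered 7 higher and 3 lower without control array 1, 5 and 4 without control array 3, and 3 and 5 in the median-scaled values.

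Of 29 Wnt pathway genes, 12 fell and 2 rose, with GSK3B at -0.57 ± 0.09, DVL2 at 0.62 ± 0.08 and CTNNB1, beta-catenin, at -0.36 ± 0.09, where 2 of its 3 probes fell and the dimmest rose. Of 12 Notch genes, 4 fell and 0 rose: RBPJ, the DNA-binding factor of the pathway, read 8.62, 8.64 and 8.62 in the isoform-knockdown arrays and 9.82 and 9.63 in the control arrays, and the glycosyltransferase LFNG fell by 1.09 ± 0.11. Of 22 YAP and TEAD genes, 9 fell and 4 rose, with TEAD3 at -0.78 ± 0.08, the ectonucleotidase NT5E at -0.72 ± 0.09 and tissue factor F3 at 0.92 ± 0.09. Of these 22, 2 rose in the median-scaled values. In 21 TGF-beta genes 4 rose and 5 fell, shares near those of all genes. LTBP3, follistatin (FST) and TGFBI rose by 1.09 ± 0.08, 1.05 ± 0.09 and 0.92 ± 0.08, and SMAD5 fell by 0.97 ± 0.08. Chromatin modifiers had 10 of 44 higher and 13 lower, also near the shares of all genes, among them HDAC4 at -0.96 ± 0.09 and the arginine methyltransferase PRMT1 at 0.85 ± 0.09. Forkhead factors had 3 of 18 higher and 6 lower, with FOXN3 at -0.47 ± 0.08 besides FOXQ1. Without control array 1, the falls numbered 6 in the Wnt list, 3 in the TGF-beta list, 8 among chromatin modifiers and 2 among forkhead factors. Without control array 3, 3 TGF-beta genes fell and 6 chromatin modifiers rose. Of 19 genes of fucose and sialic acid glycosylation, 3 rose and 4 fell (0 and 4 in the median-scaled values). GMDS and the core fucosyltransferase FUT8 fell, the second by 0.68 ± 0.10, and the sialyltransferase ST3GAL1 rose by 0.53 ± 0.09.

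Of 22 matrix proteases and inhibitors, 9 rose and 2 fell (5 and 3 in the median-scaled values): the stromelysin MMP3 rose by 0.69 ± 0.08, TIMP1 by 0.63 ± 0.08 and the protease inhibitor SERPINE2 by 0.74 ± 0.10, while urokinase PLAU fell by 0.67 ± 0.09. Of 3 probes for its receptor PLAUR 1 was called higher and 1 lower. Integrins had 3 of 22 higher and 4 lower, with ITGA6 and ITGB1 at -0.77 ± 0.09 and -0.45 ± 0.09. In collagens and laminins, 7 of 22 rose and 4 fell. Integrins called lower numbered 2 without control array 1, and collagens and laminins called higher 4 without control array 3 and 3 in the median-scaled values. COL13A1 fell by 0.99 ± 0.08, and LAMB3 rose by 0.75 ± 0.09.

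Small RNAs showed some of the widest spread. Of 162 measured small nucleolar and Cajal body RNAs, which guide modification of other RNAs, 52 rose and 20 fell (13 without control array 3), with a median of 0.06 and a range from -2.43 to 2.27. SNORD21 had 8.84, 8.82 and 8.85 in the isoform-knockdown arrays, against 6.57 and 6.56 in the control arrays. The U3 copies SNORD3A and SNORD3C rose by 1.54 ± 0.09 and 1.10 ± 0.09, and SNORA79 and SNORA12 fell by 0.99 ± 0.11 and 1.04 ± 0.10. Of 23 host transcripts, 10 rose and 4 fell (2 without control array 3), with SNHG15 at 1.22 ± 0.10 and SNHG17 at 1.00 ± 0.08. Among 20 other structural RNAs, 11 rose (7 without control array 1, 6 in the median-scaled values) and TERC alone fell; the vault RNA VTRNA1-1 read 7.61, 7.78 and 8.12 in the isoform-knockdown arrays, against 6.51 and 6.41 in the control arrays. Mature forms of most of these RNAs lack a poly(A) tail and many have near-identical copies, and what form the probes read was not tested. The small RNA machinery itself fell in 6 of 17 genes and rose in 1, the helicase MOV10 (0.53 ± 0.08). Without control array 1 only 3 of these 17 were called lower.

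Of 36 splicing factors 9 rose and 10 fell, with TRA2A at 1.22 ± 0.09, PTBP1 at -0.88 ± 0.09 and HNRNPC at -0.88 ± 0.10. With either control array left out, 6 splicing factors were called lower; the median-scaled values gave 2 higher and 12 lower. In ribosome biogenesis 14 of 32 rose and 6 fell, including the methyltransferase NOP2 (1.09) and the polymerase subunit POLR1C (1.14). The falls there numbered 1 without control array 1, 3 and 2 without isoform-knockdown arrays 2 and 3, and 2 with neqc, and the median-scaled values gave 7 higher and 7 lower. Of 74 ribosomal protein genes 13 rose and 22 fell, of 76 mitochondrial ones 12 and 25, and of 69 of the respiratory chain 12 and 22. In the median-scaled values these were 3 and 17, 0 and 29, and 2 and 22. Without control array 1, 6 mitochondrial ribosomal protein genes rose. RPL23A and RPL4 rose by 1.07 ± 0.09 and 0.72 ± 0.09 while RPS28 and RPL5 fell by 0.97 ± 0.08 and 0.93 ± 0.10. The mitochondrial MRPL1 fell by 1.07 ± 0.09, and SDHC, a membrane anchor of complex II, rose by 1.07 ± 0.09. The proteasome had 4 higher and 5 lower of 27 (3 and 3 with either control array left out or with neqc, 1 and 5 in the median-scaled values), with the regulatory subunit PSMD3 at 0.81 ± 0.09. Of 10 long noncoding RNAs 3 rose and 2 fell, the falls being CRNDE (-1.22) and MANCR (-1.13). Cancer-testis antigens had 14 measured genes of 64 on the array, of which 6 rose and 0 fell, among them the SPANX copies.

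The labelled line was checked against markers. VIM, CD44, CAV1, EGFR and 9 other markers of the line were measured, 13 of 14, and 3 of them rose and 3 fell. VIM had a difference of -0.10 ± 0.09, CD44 of -0.58 ± 0.08 and the actin bundler FSCN1 of 0.79 ± 0.09. ESR1, PGR and CDH1 had no kept probe, nor had the leukocyte marker PTPRC or the endothelial marker PECAM1. Luminal markers were lower in 1 of 8 cases (EPCAM, -0.50). Of 8 leukocyte markers 2 rose and 1 fell, HLA-DRA, by 1.10 ± 0.09. Only 1 rose with neqc, with no filter or without any 1 of the isoform-knockdown arrays. The summed linear level of the list was 4060 to 4257 in the isoform knockdown and 4282 and 4399 in control. The 3 basal markers had 1 higher, ACTA2 (0.63), and 2 lower, the 5 fibroblast markers 1 higher and 1 lower, and the 2 endothelial markers 1 lower. Without isoform-knockdown array 2, 0 basal, 0 fibroblast and 0 endothelial markers were called lower. Of 6 neuroendocrine and muscle markers 3 rose and 0 fell, or 1 and 0 where detection on all 5 arrays was required. A gene undetected in control can pass the filter through the isoform-knockdown arrays alone, and can then hardly be called lower. ACTA1, skeletal muscle actin, read 7.88, 7.61 and 7.80 in the isoform-knockdown arrays; it was not well above background on either control array and was at least 2.75-fold higher, and the summed level of the list was 1438 to 1451 in the isoform knockdown and 825 and 840 in control. The list and this sum include the enolase ENO2, already counted above among the glycolysis genes that rose. MYOD1, DES and SYP had no kept probe.

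Long genes fell more often than short ones, a pattern noticed in the values and not tested. Among 2449 protein-coding genes under 10 kb in RefSeq, 30.4% rose and 18.2% fell, with a median of 0.05. Among 725 genes of 200 kb or more, 6.90% rose and 46.2% fell, with a median of -0.20. The medians in between declined with each step, 0.03 for 10 to 20 kb, -0.01 for 20 to 50 kb, -0.09 for 50 to 100 kb and -0.15 for 100 to 200 kb. In genes of 200 kb or more the median was -0.20, -0.21 and -0.20 on the 3 isoform-knockdown arrays, and control array 1 differed from control array 3 by 0.02. Long genes were also dimmer, with a median level of 7.23 against 8.33. Within the brighter genes alone the 207 longest had 10.1% higher and 59.4% lower, against 37.7% and 20.7% of the 1345 shortest. In the WT knockdown the same 725 genes had a median of -0.38 against control, and the isoform knockdown minus the WT knockdown had a median of 0.16, with 41.8% called higher and 4.00% lower. The 15 largest falls had a median length of 90.4 kb, with SMYD3 at 758 kb, AGAP1 at 638 kb and GMDS at 622 kb, and the 15 largest rises of 9.65 kb, the longest being CCL26 at 22.1 kb.

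**Figure D4:**
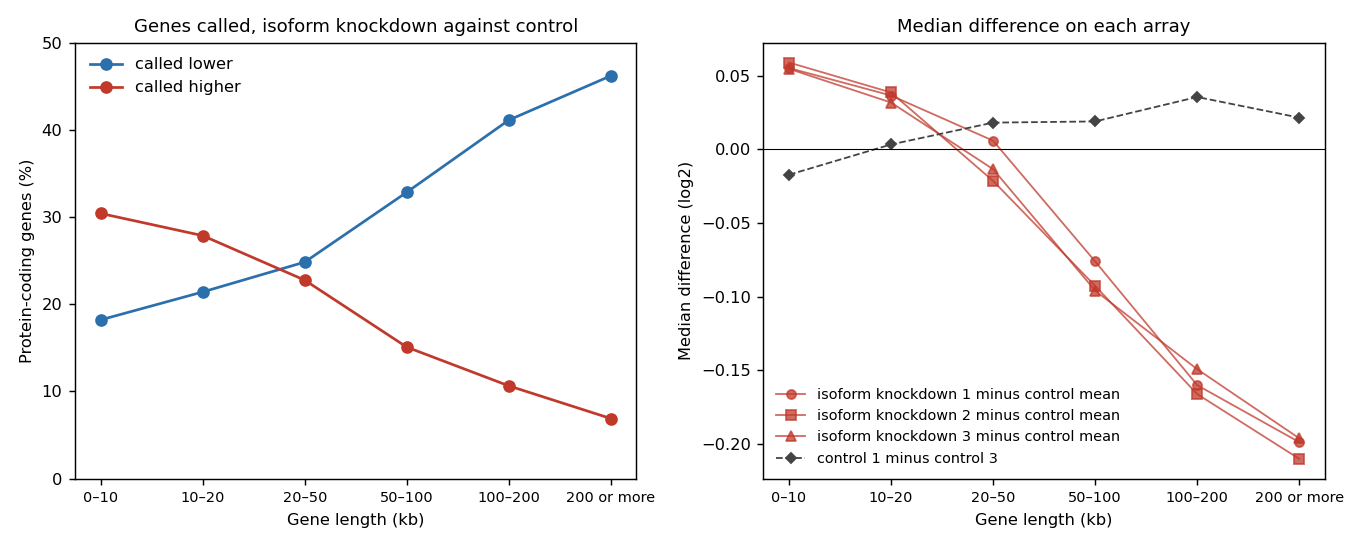
Left, share of protein-coding genes called higher and lower (percent, vertical axis) by gene length (kb, horizontal axis); right, median difference from the control mean (log2) in each of the 3 isoform-knockdown arrays and, for scale, control array 1 minus control array 3. The share called lower climbs to 46.2% and the share called higher declines to 6.90% at 200 kb or more.

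The isoform knockdown was then set against the WT knockdown, in which the controls do not enter the difference. Of 12149 genes, 5043 were called (41.5%), 2592 higher (21.3%) and 2451 lower (20.2%), and 134 (1.10%) at 2-fold or more, 28 higher and 106 lower. At probe level 4300 were higher and 3659 lower, or 3003 and 1666 in the median-scaled values. SNORD21 stood apart, with 8.84, 8.82 and 8.85 in the isoform-knockdown arrays, 6.50, 6.66 and 6.71 in the WT-knockdown arrays and 6.57 and 6.56 in the control arrays, a difference of 2.21 ± 0.08 between knockdowns (adjusted p = 2.42e-13). Of 23 aldo-keto reductases and NRF2 targets 9 were higher than in the WT knockdown and 2 lower: AKR1C3 differed by 1.27 ± 0.08 and AKR1C4 by 1.32 ± 0.08. SQSTM1 read 13.40, 13.30 and 13.35 in the isoform-knockdown arrays, 12.36, 12.41 and 12.19 in the WT-knockdown arrays and 12.37 and 12.40 in the control arrays, a difference of 1.03 ± 0.08 between knockdowns (adjusted p = 9.51e-09) and of -0.06 between the WT knockdown and control.

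Of 35 interferon-stimulated effectors 15 were lower than in the WT knockdown, 7 higher and 13 not called (10 lower and 4 higher in the median-scaled values). IFIT2 read 10.64, 10.74 and 10.88 in the isoform-knockdown arrays, 12.13, 12.39 and 12.24 in the WT-knockdown arrays and 7.92 and 8.08 in the control arrays, a difference of -1.50 ± 0.09 between knockdowns. Of 21 hypoxia-inducible genes 15 were higher and 1 lower (KDM3A, -0.54), glycolysis genes higher in 13 of 22 and lower in 2, and matrix proteases and inhibitors higher in 14 of 22 and lower in 0. For these proteases the higher calls numbered 9 without isoform-knockdown array 3 or with neqc, and 6 in the median-scaled values. Lower than in the WT knockdown were 12 of 18 aminoacyl-tRNA synthetases, 14 of 23 small nucleolar RNA host transcripts, 16 of 20 other structural RNAs and 14 of 27 proteasome genes, with 1, 0, 0 and 0 higher. In the median-scaled values, 3 synthetases, 9 host transcripts and 3 proteasome genes were lower, and without WT-knockdown array 2, 9 proteasome genes. Over all probes, the lower calls also went from 3659 to 1666 in the median-scaled values, and to 3233 without WT-knockdown array 2.

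**Figure D5:**
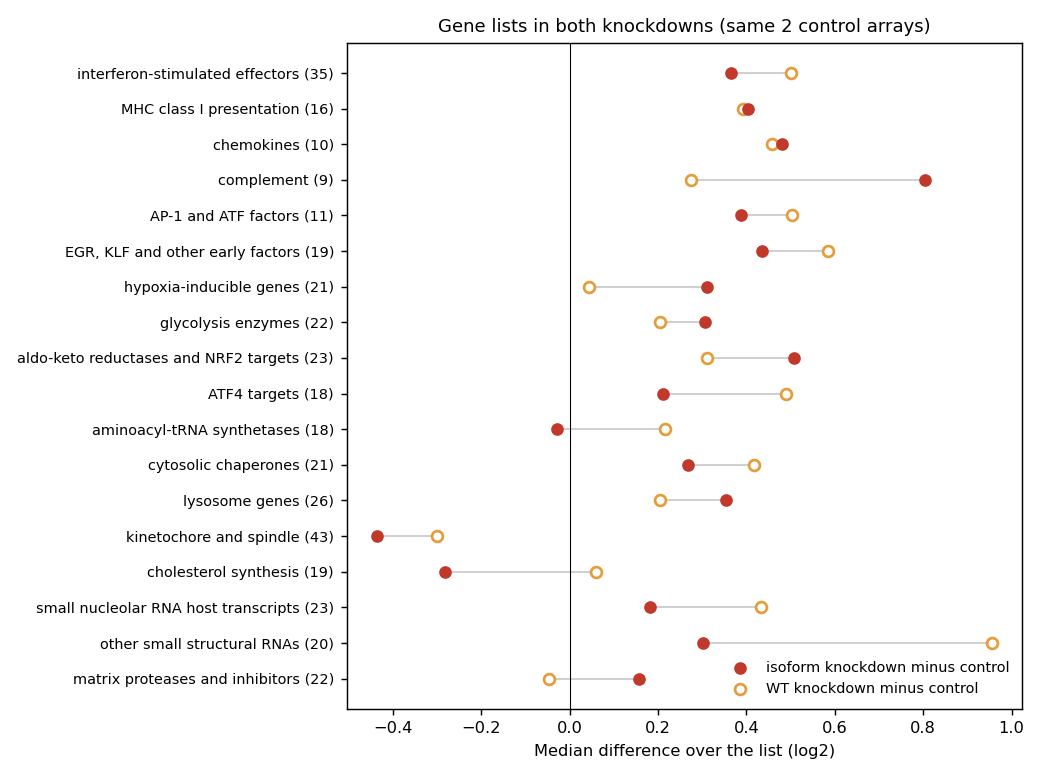
Median difference from control (log2, horizontal axis) for 18 gene lists in the isoform knockdown (filled circles) and the WT knockdown (open circles); both share the same 2 control arrays. The other structural RNAs stand at 0.30 in the isoform knockdown and 0.96 in the WT knockdown, and the hypoxia-inducible genes at 0.31 and 0.04.

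Several genes were far higher in the WT knockdown. FERMT3, an integrin activator of blood cells, read 7.14, 7.01 and 7.20 in the isoform-knockdown arrays, 9.79, 9.89 and 9.90 in the WT-knockdown arrays and 6.39 and 6.43 in the control arrays. It rose by 0.70 ± 0.09 against control and was -2.74 ± 0.08 against the WT knockdown. FOXD4L1, FOXD4, SNORA71A and PIGW differed between knockdowns by -2.35 ± 0.10, -2.05 ± 0.07, -2.16 ± 0.07 and -2.16 ± 0.08; FOXD4 and FOXD4L1 are near-identical copies. LAT and LHX3 were not detected on either control array. They were at least 1.53-fold and 1.37-fold higher in the isoform knockdown than in control, and differed from the WT knockdown by -1.71 ± 0.09 and -2.01 ± 0.09. BCL2L1 fell less than in the WT knockdown, with a difference of 0.92 ± 0.08, and SND1 was 0.78 ± 0.11 higher.

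Probes of one gene did not always move together. Of 3376 genes with more than 1 kept probe, 164 had probes called in opposite directions. Such probes may read different transcripts of a gene, and a gene's call here is that of its brightest probe.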

How the data were processed

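RNA of MDA-MB-231 cells was measured on 1-colour Illumina arrays of 47231 probes. The authors deposited log2 values for 9 samples, with quantiles equal across arrays, and a table of signal intensity with detection p-values; the submitters' processing notes name R 3.1.0, and the sources used here do not give the further steps. In the deposited intensity table the rows of the 6 knockdown arrays stand in another order than their probe IDs, so detection p-values were carried to probe IDs by matching ranks of signal and log2 value, which gave a unique match for 47231 rows and left 0 at their listed ID. Control 2 was left out as the mean of controls 1 and 3.

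Probes with detection p under 0.05 on at least 2 of the 5 arrays compared were kept (22302). limma 3.58.1 in R 4.3.3 (lmFit, contrasts, eBayes) was fitted to 8 arrays, the 3 groups sharing one estimate of spread (prior degrees of freedom 13.5, residual 5); p-values were adjusted by Benjamini-Hochberg over all kept probes, at a threshold of 0.05. In simulated data of this size, 67, 67 and 66 probes were changed 1.5-, 2- and 4-fold in the isoform knockdown against control. Noise was drawn independently for each value. Of the changed probes 74.6%, 97.0% and 100% were recovered, with 9 false calls. Far more probes, 9744, were called in the real data, so these figures do not give the error among those calls. Each gene is represented by its brightest kept probe; probes were named through the platform annotation and RefSeq. Promoter windows are RefSeq's, on GRCh38.p14. A fold said to be at least some value sets the mean of the isoform-knockdown arrays against the lowest level of detected probes on the control arrays, where the probe was not detected.

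The genes and lists were chosen with earlier results of these data known. Named are MTDH, the 15 largest rises and falls without overlap, the 8 highest and lowest differences from the WT knockdown among genes called in both contrasts, and per list up to 5 members of smallest adjusted p, members against their list's majority, and any member of lists of up to 12. Gene length, the CLEAR core and the genes of the closing paragraphs were added after values were seen. Whether same-numbered arrays deviate together was checked, and they did not pair. Alternatives were the arrays fitted, 3 treatments of rematched intensity, the filter, the variance model, a replicate block and leaving out each array.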

Additional observations from a re-analysis of the deposited data

Results flagged for a closer look

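Some genes were called in opposite directions against control in the 2 knockdowns, and the direct comparison of the knockdowns passed for each named here. In all, 182 of 12149 genes did so, 67 higher and 115 lower in the isoform knockdown. DPH2, an enzyme of diphthamide synthesis, read 10.38, 10.10 and 10.37 in the isoform-knockdown arrays, 8.76, 8.72 and 8.79 in the WT-knockdown arrays and 9.96 and 9.95 in the control arrays, a difference of 1.52 ± 0.08 between knockdowns (adjusted p = 1.8e-10). Its difference from control was 0.33 ± 0.09, and 0.32 (adjusted p = 0.0515) without control array 3. CDK5RAP1, a tRNA methylthiotransferase, differed by 1.33 ± 0.07, with 1 of its 2 probes called against control. PIGW, an enzyme of GPI anchor synthesis, was lower in the isoform knockdown, at -2.16 ± 0.08, with -0.38 ± 0.09 against control.
The numbers of arrays per group, 3, 3 and 2, were too small for a search for single outlying arrays.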

How the results depend on the processing

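No named gene that passed its test changed direction under any alternative run. Among values that did not pass, SND1 had 0.12 against control without isoform-knockdown array 1, MT1X had 0.05 without control array 1 and 0.02 with the replicate block, and MTDH differed between the knockdowns by -0.04 without isoform-knockdown array 1 and by -0.08 without WT-knockdown array 1. Leaving out 1 array gave 7071 to 10117 called probes against control and 6817 to 7725 against the WT knockdown, with 355 to 397 and 181 to 209 at 2-fold or more; in these fits a lone control array is assumed to vary like the other groups. Background-corrected neqc values gave 869 probes at 2-fold or more against control and 439 against the WT knockdown. With normexp and scaling to a common median, these were 1145 and 426, 2109 probes were called higher against control, and 4669 were called against the WT knockdown, 1666 of them lower. The replicate block, whose numbers do not pair the samples (correlations of deviations of at most 0.0751 between same-numbered arrays), gave 9218 called probes against control and 7880 against the WT knockdown. It ended the call of GBP1 alone among named genes. With normexp and scaling to a common median the calls of 15 named genes against control were lost: B2M, BNIP3, CDC25A, CDT1, CXCL8, DPH2, DSN1, HBEGF, MCM2, MOV10, SLC30A1, SMC3, ST3GAL1, TIMP1 and ZWINT. All 15 were called with neqc, which has the same background correction and quantile normalization. GBP1 was also lost with no filter. Without control array 1, PIGW had -0.31 against control (adjusted p = 0.0533). Some of the 1280 medians of lists relative to all genes could not move, since the setting leaves each difference unchanged. These settings were the 5 arrays alone, no filter, other variance models and leaving out a WT-knockdown array. Of the 1280 medians, 190 moved by more than the SD over the 3 isoform-knockdown arrays. A further 5 changed sign from a main value larger in size than that SD. Sign changes of main values smaller than the SD are not among these 5. The cytosolic ribosomal proteins went to 0.0523 with normexp and scaling to a common median. With detection on all 5 arrays, the fibroblast markers went to -0.21 and the small RNA machinery to 0.0116. The leukocyte markers ranged from -0.0156 to 0.1494 without 1 array (below 0 without control array 1). The long noncoding RNAs went to -0.0132 with the median over a gene's probes. Genes of 200 kb or more had a median of -0.38 among genes above the median level and -0.46 with normexp and scaling to a common median. Those under 10 kb had medians of 0.08 and -0.09 in the same settings. With control array 2 kept as labelled, 9 BCL2-family and death receptor genes were called higher and 8 lower, 4 IRF and STAT factors lower, 5 line markers each way and 5 glycosylation genes higher; the replicate block gave 4 lysosomal genes lower. The depth of signal limits dim genes: uncorrected background draws their differences towards 0.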

Other observations

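Beyond the genes above, further named genes changed at 2-fold or more; they were chosen after their values were seen. IGFBP6, a binding protein that prefers insulin-like growth factor II, had 10.74, 10.76 and 10.75 in the isoform-knockdown arrays, against 8.68 and 8.86 in the control arrays. SOD2, the mitochondrial superoxide dismutase and an NF-kB target, read 11.42, 11.25 and 11.23 in the isoform-knockdown arrays, against 9.34 and 9.44 in the control arrays. The retinoic acid-induced receptor GPRC5A rose by 1.88 ± 0.09, the membrane mucin MUC1 by 1.63 ± 0.08, the matricellular protein CCN3 by 1.67 ± 0.09 and the long noncoding RNA UCA1 by 1.75 ± 0.10.

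Large falls included proteins of the cell surface and cytoskeleton. The giant cadherin FAT1 had 9.52, 9.37 and 9.25 in the isoform-knockdown arrays, against 10.68 and 10.52 in the control arrays. The nonmuscle myosin heavy chain MYH10 fell by 1.18 ± 0.08, the anthrax toxin receptor ANTXR2 by 1.21 ± 0.08 and the growth factor PDGFC by 1.10 ± 0.10. INPP4B, a phosphoinositide phosphatase that counters PI3K signalling, read 8.22, 8.22 and 8.30 in the isoform-knockdown arrays, against 9.49 and 9.28 in the control arrays. MCUB, the inhibitory subunit of the mitochondrial calcium uniporter, fell by 1.18 ± 0.09, in the same direction as its gatekeeper MICU2. The fatty acid elongase ELOVL6 fell by 1.10 ± 0.08.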
